A study of Mus musculus with 4 samples.

Results

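The loci described here are 10 genes of the Notch pathway in mouse neural stem cells: the receptor genes Notch1 and Notch2, the ligand genes Dll1, Dll3 and Jag1, the nuclear mediator gene Rbpj, the effector genes Hes1, Hes5 and Hey1, and the feedback gene Nrarp. They were given as a fixed list of symbols, all 10 matched the RefSeq gene table, and they are 10 of the 21631 protein-coding genes examined (chromosomes 1 to 19 and X). They were chosen by values of this same table, in particular the lack of called regions at the ends of Hes5 and Dll1, so what follows describes the loci and tests nothing about them. The series mapped where the homeobox factor Six3 sat on chromatin by CUT&RUN, in which an antibody directs a nuclease to a protein and the released DNA is sequenced. Primary neural stem cells from mice, labelled WT, had been made to overexpress Six3, and at sampling they had spent 3 h in a neurobasal medium that replaced their growth factor medium. Per the labels, 3 libraries were raised against the FLAG tag of Six3 and 1 with control IgG; all came from such cells. How Six3 was introduced, whether the 3 FLAG libraries came from separate cultures, and how many animals gave cells is not stated in the labels. The table holds DNA regions and no expression, so the cell type was not checked against its markers.

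Notch signalling passes between touching cells. A ligand of the Delta or Jagged kind on 1 cell engages a Notch receptor on its neighbour, proteases release the receptor's intracellular domain, and that domain joins the DNA-binding protein Rbpj to switch on Hes and Hey genes. Hes1 and Hes5 are repressors that hold back proneural genes and so help to keep neural stem cells undifferentiated, while cells that raise Dll1 tend to move towards neurons and signal to those around them.

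The analysed table lists called regions, each with a summed signal and a highest signal, and no column belongs to a single library. FLAG was therefore not set against IgG, the depth of each library is unknown, no value below has a replicate error, and the order of the genes in any measure is a description of this table. The highest signal of a region is a whole multiple either of 1.9 or of 0.48, and the 2 kinds are kept apart as the 1.9-step set and the 0.48-step set, since their scales need not match. A region of 4 or more 1.9 steps, a highest signal of at least 7.6, is called tall; 22.7% of the 1.9-step regions in the whole table reached it. Each measure was ranked among the 1000 protein-coding genes nearest in length, and a percentile gives the share of those genes below the value, with ties counted at their middle. The scores are the authors' own. None of the 10 genes lay in a 500 kb bin of broadly raised 1.9-step signal: relative to the autosomal median, their bins lay between 0.899 at Jag1 and 1.29 at Nrarp.

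At 8 of the 10 genes called regions came within 1 kb of a gene end, whereas Hes5 and Dll1 had none. Over all protein-coding genes the share was 94.2%, so a gene with nothing within 1 kb of either end is the rarer kind, and an occupied end says little about a gene. The count of 8 was fixed in part by the choice of the list. It was also 8 in the 1.9-step set, beside 88.1% of all genes, and 7 counting 0.48-step regions alone, beside 65.7%. Inside the gene body, 9 of the 10 held a region, beside 93.3%, and the empty body of the short gene Hes5 follows from its bare ends. The nearest region to Hes5 began 1184 bp above its upper end, and the nearest to Dll1 was 1315 bp away at either end. At the next gene inside the limit, Nrarp, the nearest region was 456 bp from an end. Tall regions lay at the ends of 3 genes, Notch1, Jag1 and Nrarp, against 38.9% of all protein-coding genes. A region covered an end of Hes1, Notch1 and Rbpj, which is 3 genes of 10 against 43.7% of all genes. Over the 20 ends the median distance to a region was 385 bp, and over the ends of all genes it was 266 bp.

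**Figure D1:**
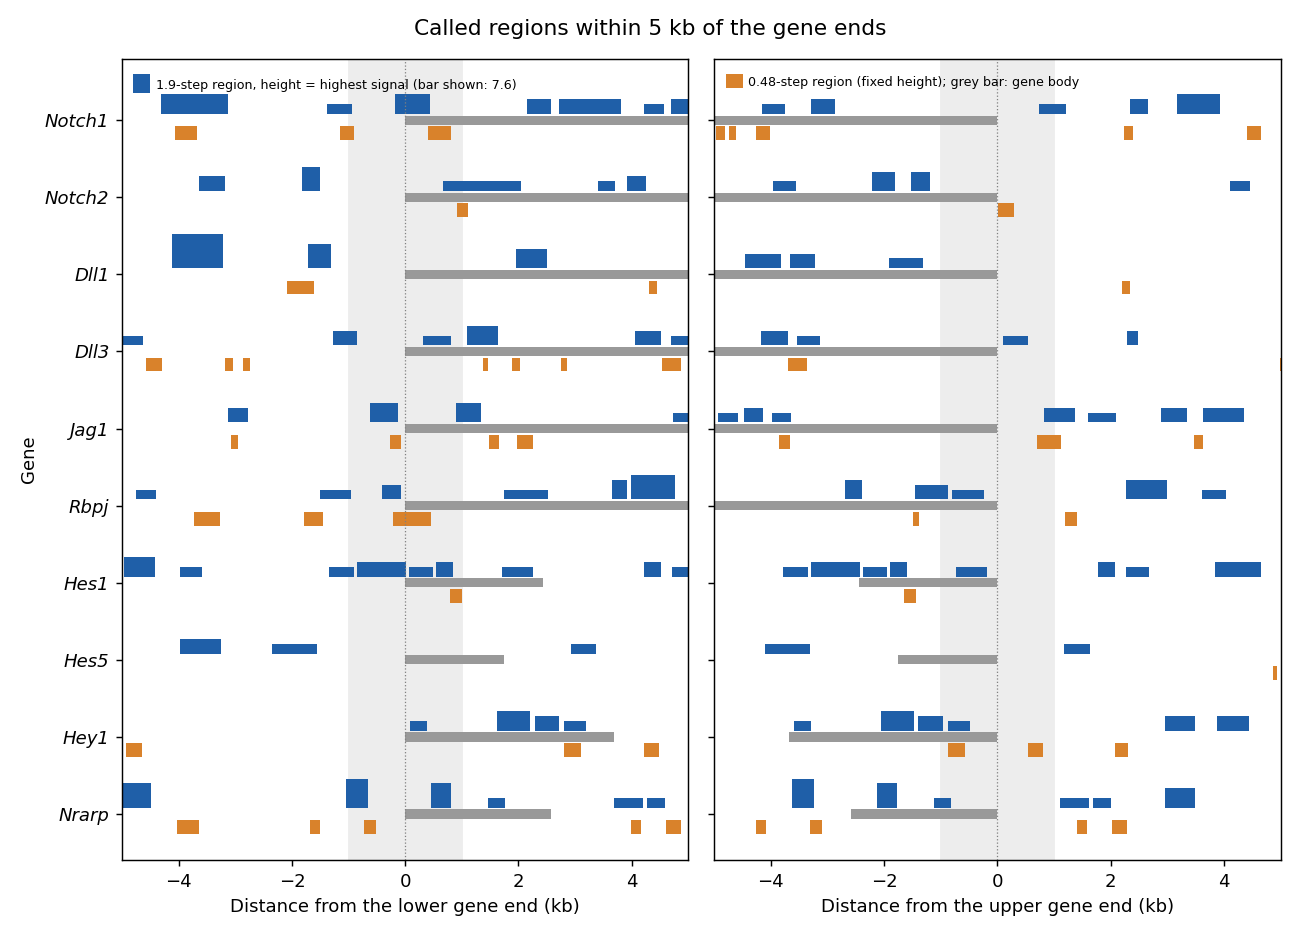
Called regions within 5 kb of the lower (left) and upper (right) end of each gene, with distance from the end in kb on the x axis and the genes as rows. Blue bars are 1.9-step regions drawn to the height of their highest signal, orange bars are 0.48-step regions of fixed height, grey bars are gene bodies and the pale band marks 1 kb either side of the end; the band is empty at both ends of Hes5 and Dll1 only.

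Hes5 lay whole inside a stretch with no called region. The gene (chromosome 4, 154960626 to 154962372, mm10, plus strand, 1747 bp) held 0 regions, and the bare stretch ran from 154959063 to 154963555, or 4493 bp. The start listed for its RefSeq promoter lies inside the gene, at 154960923, 1861 bp from the nearest region. The flanking regions were both low: the region below had a highest signal of 3.8 at 154958266 to 154959062, and the region above had 3.8 at 154963556 to 154964001. An empty gene body was common at this length, with 252 of the 1000 genes nearest in length (25.2%) holding no region. Of those 1000 genes, 196 (19.6%) had a bare stretch at least as wide at their lower end and 203 (20.3%) at their upper end, and 12% had no region within 1 kb of an end. The bare stretch at Hes5 was thus wider than the median of 1788 bp at the lower end, and below the 95th percentile of 17787 bp. When the wider stretch of each gene was ranked instead, the Hes5 stretch stood at percentile 76.9, against a median of 2496 bp. Counting 0.48-step regions alone, it was 11811 bp, against a median of 6752 bp at the lower end, where 24.7% of genes were at least as wide. In the 1.9-step set it kept its width, and 34.6% of genes were at least as wide at that end. The nearest tall region, with 7.6, lay 6854 bp below the gene at 154953254 to 154953772. The tallest within 50 kb, with 9.5, lay 9185 bp above it at 154971557 to 154972060, inside the neighbouring gene Pank4.

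Dll1 had bare ends and an occupied body. The gene (chromosome 17, 15367354 to 15376932, minus strand, 9579 bp) held 5 regions (4 with 1.9 steps and 1 with 0.48 steps), against a median of 7 in genes of similar length. Its transcription starts at the upper end, where the bare stretch ran from 15375618 to 15379124, or 3507 bp, and 213 of 1000 genes (21.3%) had a stretch at least as wide. By set that stretch changed in width and in rank: it was 7694 bp in the 1.9-step set, with 12.6% of genes at least as wide, and 7318 bp in the 0.48-step set, with 40.7%. At the lower end, where the gene stops, it ran from 15366040 to 15369304, or 3265 bp, with 219 genes (21.9%) at least as wide. When the wider stretch of each gene was ranked instead, the 3507 bp of Dll1 stood at percentile 65.5, against a median of 2654 bp. No region within 1 kb of either end was rarer at this length than at that of Hes5: it held for 37 of the 1000 genes (3.7%). A second RefSeq start of Dll1 at 15375823, within the same bare stretch, lay 206 bp from a 1.9-step region of highest signal 3.8. Hes5 and Dll1 therefore both lacked a region within 1 kb of either end but differed inside the gene. All of Hes5, at 1747 bp, lies within 1 kb of an end, so its empty body follows from its bare ends. Dll1, at 9579 bp, has room for regions between its bare ends.

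**Figure D2:**
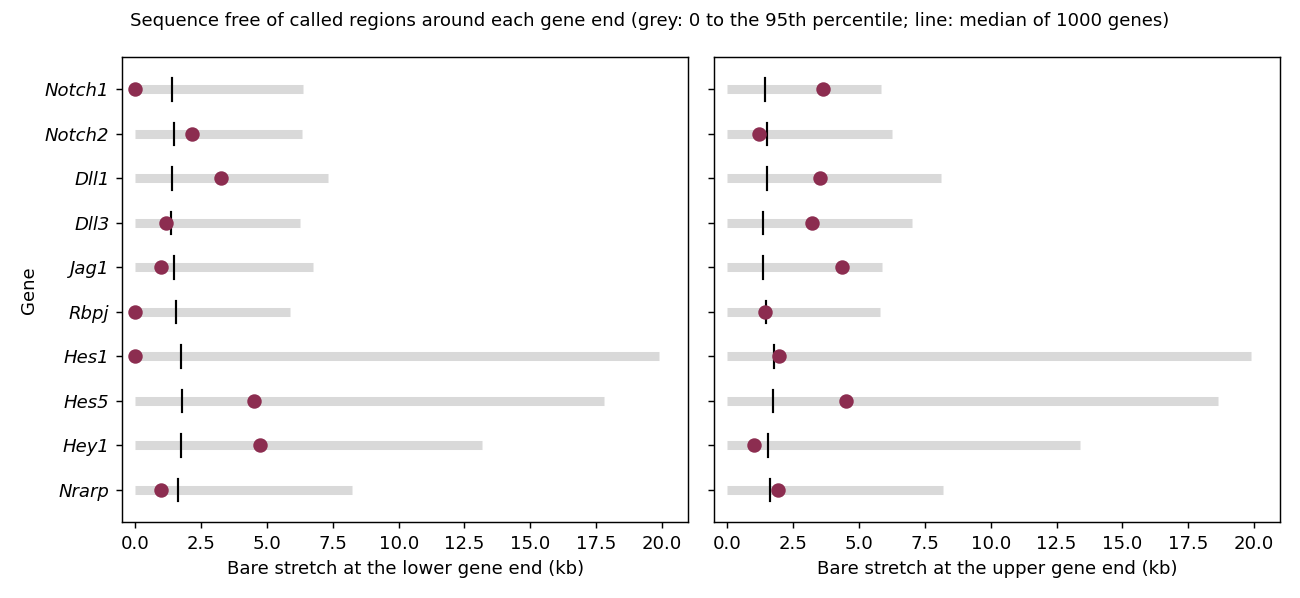
Width in kb of the stretch free of called regions around the lower (left) and upper (right) end of each gene. Points are the 10 genes, black lines the medians of 1000 genes of similar length and grey bars run from 0 to their 95th percentile; every point, Hes5 at 4493 bp and Dll1 at 3507 bp included, lies within its grey bar.

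By the rule for likeness, the genes most like Hes5 in the distances from both ends to the nearest region of each set were Epop and Sh3bgrl3, at 0.663 and 0.722 on a scale of log2 distances, where the median of 1000 genes was 7.12. Both held 0 regions, in bare stretches of 4742 and 4348 bp, but this follows from their short lengths and the distances they were picked by. The genes most like Dll1 were Usp17le at 0.470 and Pdcl at 0.681, against a median of 8.39, with 4 and 3 regions in their bodies. The likeness rests on 4 distances in a single table.

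The promoters show the sequence behind these positions, and 4 are printed: Hes5, Dll1, Dll3 and Rbpj. Hes5 and Dll1 have bare gene ends, although no listed start of any gene was covered by a region. Dll3 is the single listed promoter that a region reaches, and Rbpj carries all 3 of the motifs marked. Each line gives the 250 bases before a RefSeq start (GRCm38.p6, which has the coordinates of mm10), read 5′ to 3′ along the gene. Capitals mark motifs found on either strand, so that a match on the opposite strand reads as the reverse complement. TGGGAA is the core bound by Rbpj. TGATAC is a motif known for the homeodomains of Six3 and its relatives. TAAT is a core shared by many homeodomains. The lines cover chr4:154960673-154960922 (plus strand) for Hes5, chr17:15376933-15377182 (minus strand) for Dll1, chr7:28301786-28302035 (minus strand) for Dll3 and chr5:53590096-53590345 (plus strand) for Rbpj.
Hes5: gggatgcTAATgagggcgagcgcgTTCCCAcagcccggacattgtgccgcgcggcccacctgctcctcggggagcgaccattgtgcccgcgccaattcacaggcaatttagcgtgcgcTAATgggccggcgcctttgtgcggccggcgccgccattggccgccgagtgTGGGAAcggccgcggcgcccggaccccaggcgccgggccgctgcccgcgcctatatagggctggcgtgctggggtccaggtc
Dll1: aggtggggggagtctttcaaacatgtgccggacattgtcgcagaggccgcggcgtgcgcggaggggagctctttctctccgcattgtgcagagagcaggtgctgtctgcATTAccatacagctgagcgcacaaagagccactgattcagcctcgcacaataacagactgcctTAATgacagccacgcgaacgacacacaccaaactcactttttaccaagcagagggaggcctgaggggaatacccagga
Dll3: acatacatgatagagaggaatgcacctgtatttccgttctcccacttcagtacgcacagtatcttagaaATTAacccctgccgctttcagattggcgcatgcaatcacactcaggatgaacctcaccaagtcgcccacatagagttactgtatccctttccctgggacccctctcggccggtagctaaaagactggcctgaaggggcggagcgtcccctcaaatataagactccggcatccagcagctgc
Rbpj: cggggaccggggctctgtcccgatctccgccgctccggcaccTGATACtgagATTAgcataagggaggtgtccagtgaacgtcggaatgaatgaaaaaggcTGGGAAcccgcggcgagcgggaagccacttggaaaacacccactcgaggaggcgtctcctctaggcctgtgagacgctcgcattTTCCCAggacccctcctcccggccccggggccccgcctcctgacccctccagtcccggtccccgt

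RefSeq promoter windows of 300 bases, from 250 before to 50 after a start, were listed for 8 of the 10 genes, with a pair of windows each for Dll1 and Rbpj; Hes1 and Hey1 had no entry. Hes5 carried TGGGAA at 2 places, from -226 to -221 on the opposite strand and from -82 to -77 on its own strand, counted from the start as 0. Rbpj carried TGGGAA at 2 places in its first window and 1 in its second. No other listed window held it, and over 21045 windows of protein-coding genes 24.2% held at least 1. TGATAC stood once, in the first Rbpj window from -208 to -203, and 4.43% of all windows held it. TAAT stood in every listed window except those of Notch1 and Notch2, and in 51.7% of all windows. CACGTG, an E-box that Hes proteins can bind, was found in Nrarp alone among the listed windows, from -108 to -103, and in 7.91% of all windows. CACNAG, the N-box of Hes proteins, stood in Dll1, Notch1, Notch2 and Nrarp, and in 41.8% of all windows. A match describes letters only.

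A region reached the promoter window of 1 of the 8 genes, Dll3, with a highest signal of 3.8, against 42% of all windows. The distance from the start to the nearest region was 96 bp at Dll3, 456 bp at Nrarp, 674 bp at Notch2, 707 bp at Jag1, 741 bp at Notch1 and 935 bp at the first start of Rbpj. Of the 10 listed starts, 0 were covered by a region, beside 26.1% of all starts. Both counts were fixed in part by the choice of Hes5 and Dll1 for their bare ends. The paired starts of Dll1 and of Rbpj each share 1 bare stretch, and the count of 8 is of genes beside a share of windows. The bare stretch around a start was wider than the median of all windows, 1492 bp, at 7 of the 8 genes. It was widest at Hes5 (12.6% of windows were at least as wide) and at Jag1, where it spanned 4342 bp (13.5%), and narrowest at Nrarp with 970 bp (60.9%). At Notch1 it spanned 3615 bp (19%), more than the 3507 bp at Dll1 (20%). The Hes5 and Notch2 windows were rich in CpG, each with 41 CpG in 300 bases, percentile 95.8 of all windows. With all windows split into 5 equal groups by CpG, a region reached 37.6% of the poorest group, then 42.5%, 44.6% and 45%, and 40.4% of the richest. The part of CpG content in the Hes5 stretch was not tested; within the richest group 9.24% of windows had a stretch at least as wide as at Hes5.

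Notch1, a receptor gene of neural stem cells, was densely covered inside the gene. The gene (chromosome 2, 26457902 to 26503822, minus strand) held 48 regions (31 with 1.9 steps and 17 with 0.48 steps), against a median of 31 in genes of similar length. At 1.05 regions per kb of body it stood at percentile 99.4. Its tallest body regions had a highest signal of 11.4, a height reached by 1.63% of 1.9-step regions, and lay at 26486669 to 26487040, 26492074 to 26492567 and 26493776 to 26494212. A long gene holds many regions, and among genes of similar length the highest body signal had a median of 9.5, with Notch1 at percentile 83.2. Over body and flanks the median was 11.4 too (percentile 61.8). A tall region of 7.6 covered the lower end, where the gene stops, at 26457729 to 26458341, while the nearest region to the start was 741 bp above it with 3.8. Of the 5 regions of 11.4 in body and flanks, 3 thus lay in the gene, and none within 1 kb of its start. Summed 1.9-step signal over body and 50 kb flanks was 911 per kb, against a median of 684 (percentile 93.5).

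Notch2, the receptor gene that also serves neural stem cells and is much longer (chromosome 3, 98013538 to 98150367, plus strand), held 100 regions, 67 and 33 by set, at 0.731 per kb of body (percentile 78.9). Its tallest, 11.4 at 98063572 to 98063887, lay well inside the gene, and a region of 9.5 followed it at 98063972 to 98064309. Its ends were low, with a highest signal of 3.8 within 1 kb (percentile 15.7). Both receptor genes thus reached 11.4 in the body and had no more than 3.8 within 1 kb of the start. For Notch2 a body signal of 11.4 was the median of genes of similar length (percentile 65.5).

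Among the ligand genes, the flank of Dll1 held the tallest region. It lay 3221 bp below the gene, downstream of its stop, at 15363231 to 15364133 with a highest signal of 13.3 and a summed signal of 5213.6. Of all 1.9-step regions, 0.458% were as tall. Regions of 9.5 lay beside it at 15365634 to 15366039, 15359522 to 15361014 and 15357513 to 15358141. A locus holds many regions, and among genes of similar length the tallest in body and flanks had a median of 9.5, with Dll1 at percentile 91.3. Of the 42 regions of the 1.9-step set around Dll1, 17 were tall (40.5%, percentile 97.6). By side, 11 of 22 were tall downstream, 5 of 16 upstream and 1 of 4 in the body. Dll1 was not dense in that set, with 0.383 regions per kb against a median of 0.408, so its regions were taller rather than more numerous. In the 0.48-step set it had 0.347 per kb, at percentile 95.8.

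**Figure D3:**
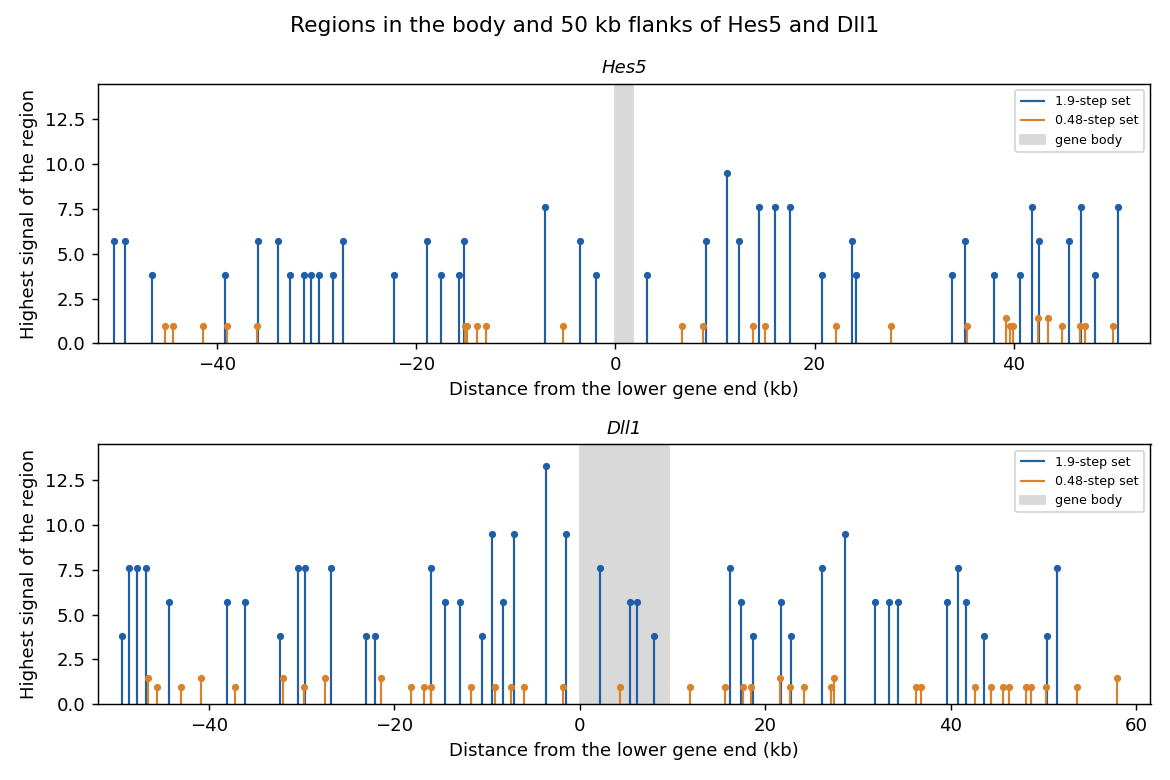
Highest signal of each called region in the body and 50 kb flanks of Hes5 (top) and Dll1 (bottom), against distance of its midpoint from the lower gene end in kb. Blue stems are the 1.9-step set, orange stems the 0.48-step set and the grey band is the gene body; the band is empty at Hes5, and the tallest stem, 13.3, stands just below Dll1.

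Dll3, a divergent ligand that does not activate receptors on neighbouring cells (chromosome 7, 28293555 to 28301785, minus strand), held 8 regions, 4 of each set, against a median of 6. No region in its body or flanks exceeded 7.6, which placed its tallest at percentile 5.25. Its density over body and flanks was 0.619 per kb, percentile 26.6 and the lowest of the 10 genes. Jag1, a Jagged ligand (chromosome 2, 137081451 to 137116520, minus strand), held 30 regions, 18 and 12 by set, at 0.855 per kb of body (percentile 90.1). Tall regions lay on both sides of the end where the gene stops. The first, 7.6 at 137080835 to 137081328, lay 123 bp beyond that end, inside the gene Slx4ip, and the other, 7.6 at 137082346 to 137082790, lay 895 bp inside Jag1. The tallest region near Jag1, 11.4 at 137149402 to 137149874, lay 32882 bp upstream of the start, outside genes. Few of its 1.9-step regions were tall, 9 of 57 (15.8%, percentile 11.8), the reverse of Dll1.

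Rbpj, the factor that the receptor domain joins on DNA (chromosome 5, 53555779 to 53657445, plus strand), was sparsely covered by regions that were often tall. It held 57 regions, 37 and 20 by set, against a median of 68, and its 0.561 regions per kb of body stood at percentile 11.4. Of its 80 regions of the 1.9-step set over body and flanks, 30 were tall (37.5%, percentile 98.5). A region of 9.5 at 53588380 to 53589411 lay 935 bp before the first RefSeq start at 53590346, and 3 others of that height lay in the body. The region covering its lower end was of the 0.48-step set.

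The effector genes differed from each other. Hes1 (chromosome 16, 30065357 to 30067796), a repressor whose level oscillates in neural stem cells, held 5 regions in 2440 bp, or 2.05 per kb, percentile 99.6. These were low: 3.8 at 30065429 to 30065842 and at 30067063 to 30067615, 5.7 at 30065905 to 30066195, and 5.7 at 30064509 to 30065366, which covered the lower end. The remaining region, of the 0.48-step set, had 0.96 at 30066143 to 30066355. No protein-coding gene lay within 50 kb of Hes1, and the 89 regions of body and flanks (percentile 97.2) reached no more than 7.6, a height shared by 12 of them. Hes1 and Hes5, related repressors of similar length, thus held 5 regions and 0 in the gene. The 0 at Hes5 follows from its short length and the bare ends it was chosen by. Whether the difference between Hes1 and Hes5 exceeds the spread between libraries was not tested, since no column holds a library.

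Hey1, a Hes-related repressor (chromosome 3, 8663359 to 8667038), held 5 regions, 1.36 per kb (percentile 92.6), the tallest with 7.6 at 8664981 to 8665562. Below its lower end a bare stretch of 4721 bp reached from 8658719 to 8663439, the widest at any end of the 10 genes, and 14.8% of genes of similar length had a stretch at least as wide. It was thus wider than that of Hes5, although a region lay 81 bp inside the gene. Nrarp, which encodes an ankyrin repeat protein induced by Notch that limits its signal (chromosome 2, 25180758 to 25183339, plus strand), had the tallest regions at its ends. A region of 11.4 lay 661 bp upstream of the start at 25179718 to 25180097, and a region of 9.5 lay 456 bp inside the gene at 25181214 to 25181563. The first stood at percentile 96.8 for the highest signal at gene ends. The tallest of its flank, 13.3 at 25228866 to 25229687, lay 45527 bp away in Slc34a3, which is 1 of 6 neighbouring protein-coding genes within 50 kb, so its flank need not describe Nrarp.

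Over body and 50 kb flanks the 10 genes carried 984 regions, of which 587 had 1.9 steps and 397 had 0.48 steps. The 1.9-step set made up 59.7% of them, against 59.9% of the whole table, and median widths were 454 and 194 bp against 455 and 195 bp. Tall regions made up 26.6% of the 1.9-step regions, against 22.7%. Region density ranged from percentile 26.6 at Dll3 to 97.3 at Hes1, with a median of 76, and lay below the matched median at 3 genes, Hes5, Dll3 and Rbpj. Hes5 itself was ordinary over this span, with 66 regions (40 and 26 by set) against a median of 67, so its bare stretch lay in a locus of usual density. By set, the median percentile was 66 for 1.9-step and 80.6 for 0.48-step regions. Among the latter, Hes1 (98.6), Dll1 (95.8), Hey1 (94.7) and Notch1 (93.6) stood highest.

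**Figure D4:**
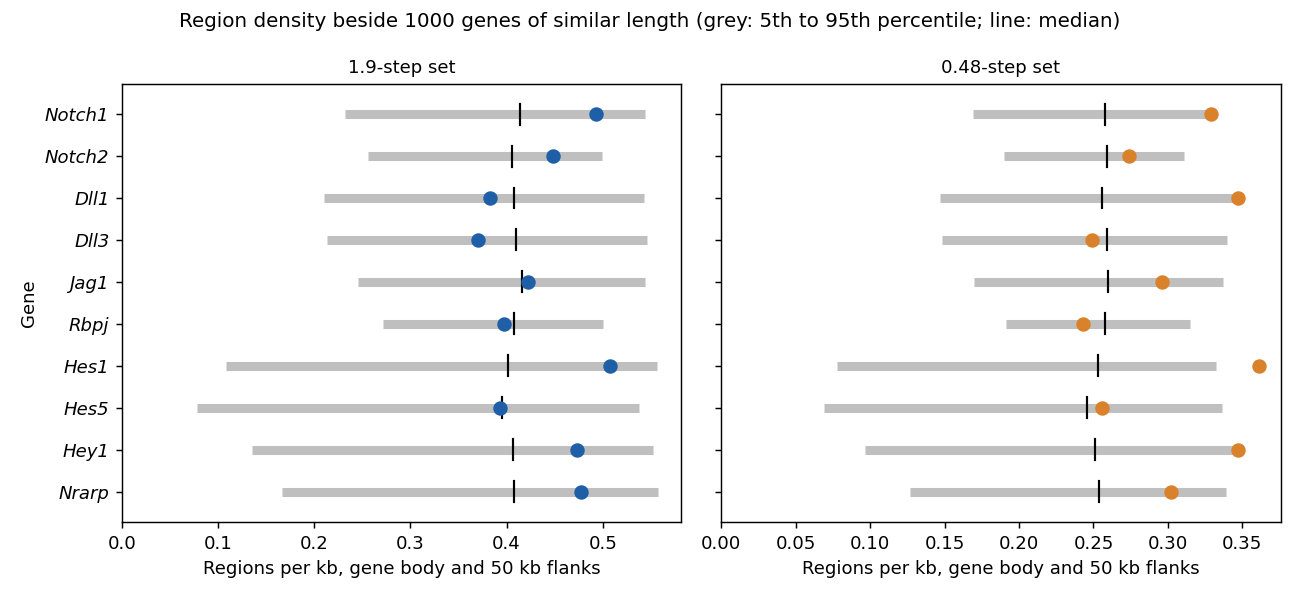
Called regions per kb of gene body and 50 kb flanks for the 1.9-step set (left) and the 0.48-step set (right). Points are the 10 genes, black lines the medians and grey bars the 5th to 95th percentile of 1000 genes of similar length; in the 0.48-step set Hes1 at 0.361 and Dll1 at 0.347 per kb lie to the right of the bar's end, whereas Rbpj and Dll3 lie left of their medians.

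Regions of the 2 sets coincided more often at these loci than in the table as a whole; no test was made of this. Of the 587 regions of the 1.9-step set, 148 (25.2%) were overlapped by a 0.48-step region by at least 1 base, against 17.7% in the whole table. The share was above the matched median at all 10 genes. It was 35.1% at Jag1 (20 of 57 regions, percentile 99.9), 31.9% at Notch1 (23 of 72, percentile 99.5), 30.6% at Hey1 (percentile 97.7) and 28.8% at Hes1 (percentile 96.2). It was lowest at Notch2, with 18.9% (percentile 60.1). The share was 22.5% at Hes5 and Dll3, 23.8% at Dll1, 22.4% at Nrarp and 20% at Rbpj. Hes1, Hey1 and Notch1 were also above the matched median density in both sets (lowest percentile 79.6), Jag1 less so (percentiles 53.5 and 79.4), and the part of density in the overlap was not tested. The labels do not say which library gave which set, so the overlap cannot be read as agreement between FLAG libraries or between FLAG and IgG.

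Of 42 other genes of the pathway, all 42 carried a region at an end, by the same 1 kb limit, beside 94.2% of all protein-coding genes, and 19 (45.2%) had a tall one, beside 38.9%. By role, tall regions lay at the ends of 0 of 2 receptor genes (Notch3 and Notch4), 2 of 5 ligand genes, 3 of 5 glycosyltransferase genes, 3 of 7 protease genes, 2 of 8 nuclear partners, 3 of 6 Hes and Hey genes and 6 of 9 further regulators. The highest signals were 13.3 at Mib2, a ubiquitin ligase that acts on ligands, and 11.4 at Adam10, the protease that first cleaves the receptor. Several genes followed at 9.5: Dlk2, Maml3, Neurl1a and Itch. Among the 6 other Hes and Hey genes the widest bare stretch was 3327 bp, at the upper end of Hes7, a gene singled out after its values were seen, and a region lay 109 bp from the lower end of Hes7. Over all 42, stretches wider than the 4493 bp of Hes5 lay at Crebbp (5754 bp), Dtx3 (5379 bp), Maml1 (5204 bp) and Jag2 (4604 bp). The next, 4179 bp at Maml3, still exceeded the 3507 bp of Dll1. The median over the 42 genes of the wider stretch at their ends was 2034 bp, beside 2569 bp over all protein-coding genes. A single end with no region within 1 kb was found at 11 of the 42 genes (26.2%), beside 24.2% of all protein-coding genes and 0 of the 10. At Itch the upper end lay 1987 bp from a region and at Jag2 the lower end lay 1746 bp from one, both farther than at either end of Dll1 or of Hes5. An end of Numb (1422 bp), of Dner (1384 bp) and of Hey2 (1363 bp) was also farther from a region than the ends of Dll1. Both ends lacked a region within 1 kb at Hes5 and Dll1. At none of the other 8 members of the list and at none of these 42 did both ends lack one, a contrast known when the genes were picked.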

How the data were processed

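CUT&RUN was profiled in 4 libraries, 3 of FLAG-tagged Six3 and 1 of IgG. Per the submitters' processing notes, the authors used Bowtie2, deepTools and SEACR with the mm10 build; versions, parameters and how libraries were combined are not stated there. The deposited table of 1578514 regions gives a summed signal and a highest signal per region, both in coverage units whose scaling is unknown; its name points to spike-in scaling and BEDOPS. Repeats were not filtered.

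Regions on chromosomes 1 to 19 and X (1577486) were put in a step set when the highest signal divided by 1.9 or 0.48 came within 0.001 of a whole number; 3 were in neither or both. Counts, distances, bare stretches and ranks among 1000 genes of similar length were computed for 21631 protein-coding genes of RefSeq GRCm38.p6, over the body and 50 kb flanks, and 1 kb around each end. Start sites came from 21045 RefSeq promoter windows. The members and lists were chosen with earlier results of these data known, and no test was run. Named were all 10 genes; of 42 others, those without a region at an end and the 3 with the highest signal there, with ties; and 2 genes most like Hes5 and Dll1. Further genes of the 42 were named for their bare stretches or distances after their values were seen. Counting and gap finding were tested on simulated data. Alternatives covered windows, heights, sets, flanks, merging, placement and matching. Software was Python 3.11.15, numpy 2.4.6, pandas 2.3.3 and matplotlib 3.10.9.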

Additional observations from a re-analysis of the deposited data

How the results depend on the processing

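No paired analysis was possible because no column of the table belongs to a library, and no replicate could be left out for the same reason. The 8 genes with a region within 1 kb of an end were 7 to 10 under the other windows, placements and sets, with 10 of 10 at 2 kb. From the RefSeq starts alone it was 7 of the 8 listed genes, and the share of all starts is not given. Dll1 was then among those with a region, as its start at 15375823 lay 206 bp from one. Only Hes5, at 1861 bp, had none. The 3 genes with a tall region at an end became 7 with 3 or more steps, 1 with 5 or more steps and 9 within 5 kb, so that count turns on the limits chosen. Of all 1.9-step regions, 63.5% had 3 or more steps and 6.29% had 5 or more. Shares of all genes at these other windows and heights are not given, so the counts there have no background beside them. The 984 regions became 541 with 20 kb flanks, 1642 with 100 kb flanks and 831 after merging. The median density percentile stayed between 75.7 and 80.9. The bare stretch at Hes5 was 11811 bp in the 0.48-step set and 12117 bp for regions of 3 or more steps; the 1.9-step set alone gave the 4493 bp of all regions. That at Dll1 was 7694 bp in the 1.9-step set, 7318 bp in the 0.48-step set and 9596 bp for 3 or more steps, since fewer regions then bound it. The median distance of 385 bp from a gene end became 595 bp to region midpoints. Depth per library is unknown.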
